A study of Mus musculus with 9 samples.

Results

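Ephrins, Slits and Flrts are guidance cues, and the genes described here encode these cues, their receptors and the srGAP proteins that act below Robo receptors. The set held 34 of the 53379 gene IDs in a deposited count table, chosen by symbol: 9 class A and 5 class B Eph receptors, 5 class A and 3 class B ephrins, 3 Slits, 3 Robos, 3 Flrts and 3 srGAPs. The RNA came from GFP+ cells sorted by FACS from the cortex of C57BL/6 mouse embryos. All 3 groups were electroporated in utero at E13.5 and collected 48 h later, at E15.5, and each held 3 libraries, deposited as biological replicates of an shRNA mix. One group received 3 shRNAs to circSlc45a4, a circular RNA from the Slc45a4 gene, another received 2 shRNAs to the linear mRNA of that gene, and the control for both received 1 scrambled sequence. The labels do not say whether replicates came from separate litters, so p-values measure the spread between these libraries only. Libraries were made from polyA-selected RNA (Illumina TruSeq), which does not retain circular RNA, so the circular target itself was not read.

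Eph receptors are receptor tyrosine kinases that bind ephrins on the surface of touching cells, and both cells can signal. Class A ephrins are held by a lipid anchor and class B ephrins span the membrane. Slits are secreted proteins that repel axons and migrating cells through Robo receptors, and srGAPs bind the inner part of Robos and act on the cytoskeleton. Flrts are adhesion proteins that bind Unc5 receptors and latrophilins on other cells. In the embryonic cortex these families are known for the spacing and migration of newborn neurons and for axon growth.

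The linear Slc45a4 transcript stood at 31.4 to 33.96 CPM (counts per 1000000 counts of the scaled library total) in scramble, 24.7 to 25.4 under circSlc45a4 knockdown and 13.3 to 18.5 under Slc45a4 mRNA knockdown. It was thus lower than scramble in both knockdowns. The log2 changes were -0.39 ± 0.12 (SE) and -1.01 ± 0.12 in that order (edgeR adjusted p 0.0245 and 0.000108). Total counts ran from 21073174 to 45469298 per library. Xist, the X-inactivation RNA of female cells, was at 0.0617 to 0.239 CPM in scramble and at 264 to 635 CPM in the circSlc45a4 knockdown, so embryo sex and that knockdown cannot be told apart. Replicates 1, 2 and 3 of the Slc45a4 mRNA knockdown had 1550, 637 and 0.194 CPM. Against scramble, the circSlc45a4 knockdown had 8 of 12 apical progenitor markers higher and none lower (summed level 1703 to 1842 against 1038 to 1374 CPM), where 14.1% of all genes were higher and 13.0% lower. Of 5 upper-layer neuron markers, 3 were lower there (1088 to 1395 against 1822 to 2453 CPM), and of 6 deep-layer markers 3 were higher and 1 lower (1168 to 1418 against 896 to 1125 CPM). Of 10 markers of newborn and migrating neurons, 3 were lower in the circSlc45a4 knockdown (5033 to 5264 CPM) and 4 in the Slc45a4 mRNA knockdown (4597 to 5270.0 CPM) than in scramble (5762 to 7017 CPM). In the Slc45a4 mRNA knockdown 9.09% of all genes were lower. Of 7 basal progenitor markers, 4 were lower and none higher in the circSlc45a4 knockdown (1071 to 1312 against 1427 to 1564 CPM). The sum of 7 Cajal-Retzius markers was 78.8 to 256 CPM there against 27.3 to 65.8 in scramble, with 2 of the 6 tested higher and Trp73, Lhx1 and Lhx5 under 1 CPM in every library. That of 8 microglia markers was 6.08 to 10.8 against 2.41 to 4.11 CPM, with 1 of the 6 tested higher and Aif1, P2ry12 and Tyrobp under 1 CPM in every library. None of these markers was at 0 in all libraries, and their part in the results on the guidance genes was not tested. In sorted bulk samples, fewer cells of a type and less RNA per cell cannot be told apart.

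Per kilobase of exon, the class B ephrins led the set in scramble. Efnb2 stood highest at 86.4 ± 4.58 CPM per kilobase (SD, n = 3, as for every mean that follows), and Efnb1 came next at 67.2 ± 8.53. They were followed by Epha4 at 41.6 ± 1.41 and Robo2 at 36.3 ± 7.47, whose order lay within their spread. Srgap3 (23.7 ± 0.883), Flrt3 (22.0 ± 6.25) and Ephb6 (20.6 ± 2.53) overlapped, as did Epha3 (18.4 ± 0.651) and Epha5 (17.4 ± 0.529). By the length of the longest transcript Efnb2 still led (124 CPM per kilobase), but Robo2 (71.7), Efnb1 (71.2) and Epha4 (52.9) followed in that order, Epha5 went up to rank 5 (39.8) and Robo1 to rank 9 (22.1), so places below the first depend on the length used. At the other end, Epha2, Epha6, Epha8, Epha10 and Slit3 stayed under 1 CPM in every library. Epha1 had 0 to 4 counts per library, fell under the filter on low counts and was the only member not tested. Where no read was counted, up to 3 counts remain possible, that is 0.0671 to 0.143 CPM in these libraries by counting error alone.

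Per kilobase of exon, the order changed at the top in both knockdowns. Epha4 ranked first in the circSlc45a4 knockdown at 77.7 ± 8.51 CPM per kilobase, with Efnb2 next at 62.2 ± 7.26, a gap within their spread. Efnb1 (54.0) and Efnb2 (50.7) led in the Slc45a4 mRNA knockdown, also close together. By the longest transcript, Efnb2 held more of the summed class B ephrin level there than Efnb1 (50.8% ± 1.71 against 40.0% ± 0.94). Their order in that group thus depends on the length used. Epha3 rose from rank 8 in scramble to rank 4 in both knockdowns, and Slit1 went from rank 12 to rank 22 in the circSlc45a4 knockdown. The summed level of the class A Eph receptors was 83.5 ± 2.53 CPM per kilobase in scramble, 142 ± 10.1 under circSlc45a4 knockdown and 96.6 ± 4.59 under Slc45a4 mRNA knockdown. For the class B ephrins the sums were 165 ± 11.8, 134 ± 8.90 and 118 ± 10.5 in the same order.

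**Figure D1:**
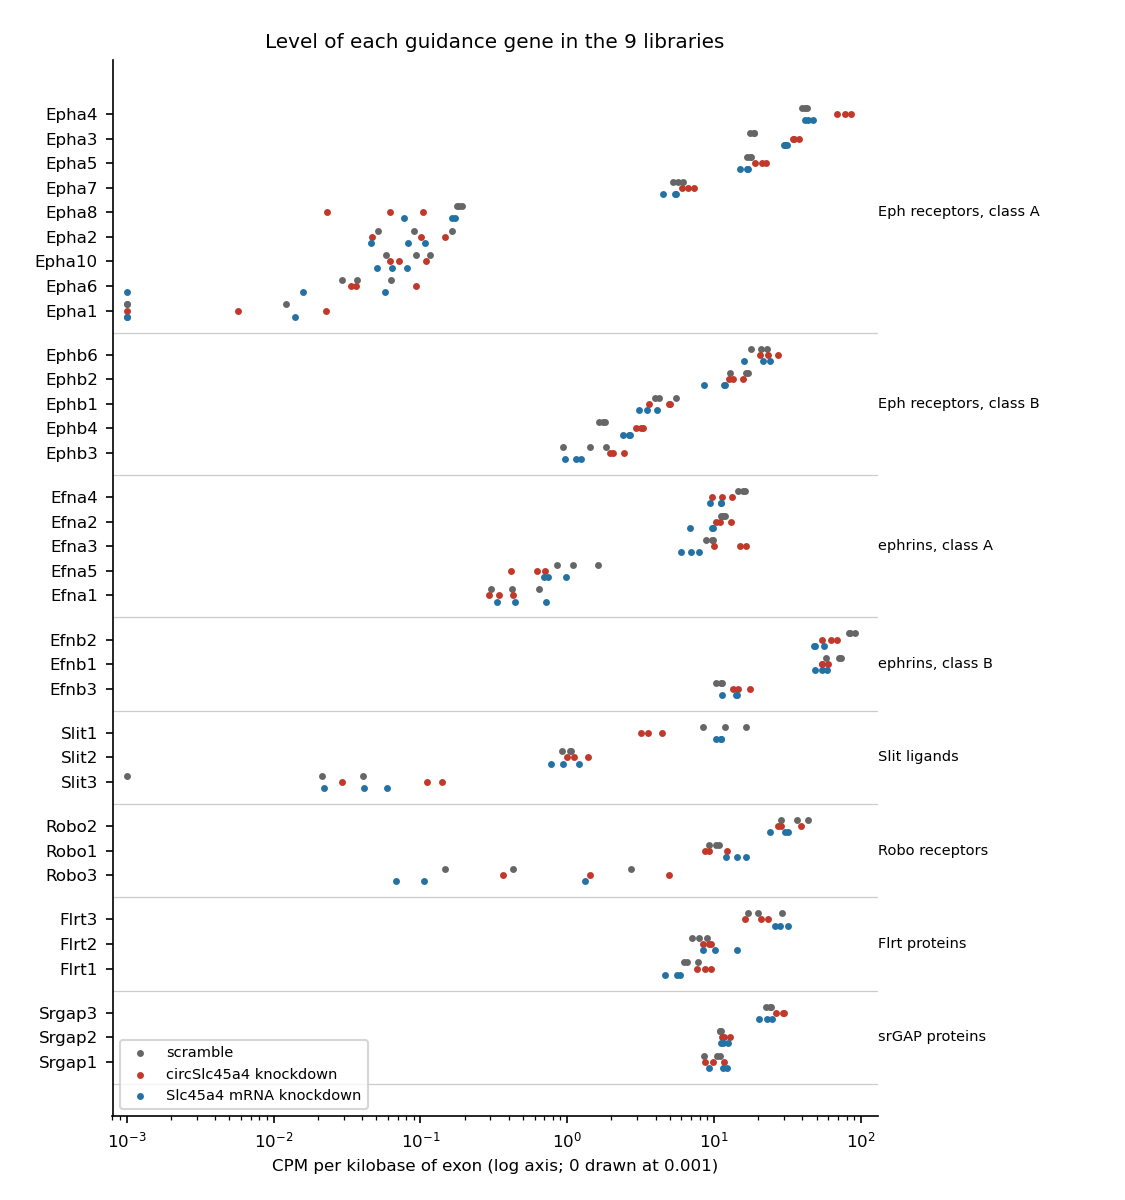
Level of the 34 guidance genes, by family, in CPM per kilobase of exon on a log axis, with 1 point per library and colours for the 3 groups. Efnb2 and Efnb1 lie at the right in scramble, and Epha4 (77.7 CPM per kilobase on average) passes them in the circSlc45a4 knockdown.

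In the circSlc45a4 knockdown, 13 of the 33 tested members passed the threshold (edgeR quasi-likelihood test, Benjamini-Hochberg adjusted p under 0.05 over all genes), 8 higher and 5 lower than scramble. Over all 17760 genes tested, 27.1% passed in this comparison (14.1% higher and 13.0% lower), so the members' share stood above the background by a few genes. The 2 groups did not overlap for 14 members, a share near the 43.9% of all genes. The median change of the members was 0.12 on the log2 scale, against -0.01 for all genes. With upper-quartile factors the split was 5 higher and 6 lower, and leaving out circSlc45a4 replicate 1, circSlc45a4 replicate 2 or scramble replicate 3 left 7, 8 and 7 calls. With Xist as a covariate Epha3, Epha4, Ephb4 and Slit1 passed and the other 9 did not. Xist was low in every scramble library and high in every circSlc45a4 library, so this fit cannot separate embryo sex from that knockdown.

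In the Slc45a4 mRNA knockdown, 7 members passed, 3 higher and 4 lower than scramble, and the background was 18.0% (8.92% higher and 9.09% lower), close to the members' share. The groups did not overlap for 11 members, against 36.1% of all genes, and the members' median change was -0.18 against 0.01 for all genes. Leaving out scramble replicate 2 left 4 calls, and with Xist as a covariate Epha3 and Efnb2 passed. The DESeq2 test called 11 members here. Both comparisons use the same 3 scramble libraries. Between the knockdowns, 12 members differed, 9 higher and 3 lower in the circSlc45a4 knockdown, with a background of 26.1% (13.8% higher and 12.3% lower), and 13 members did not overlap, against 40.1% of all genes. Without circSlc45a4 replicate 1 there were 6 calls between the knockdowns. A further 14 members passed in none of the 3 comparisons.

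**Figure D2:**
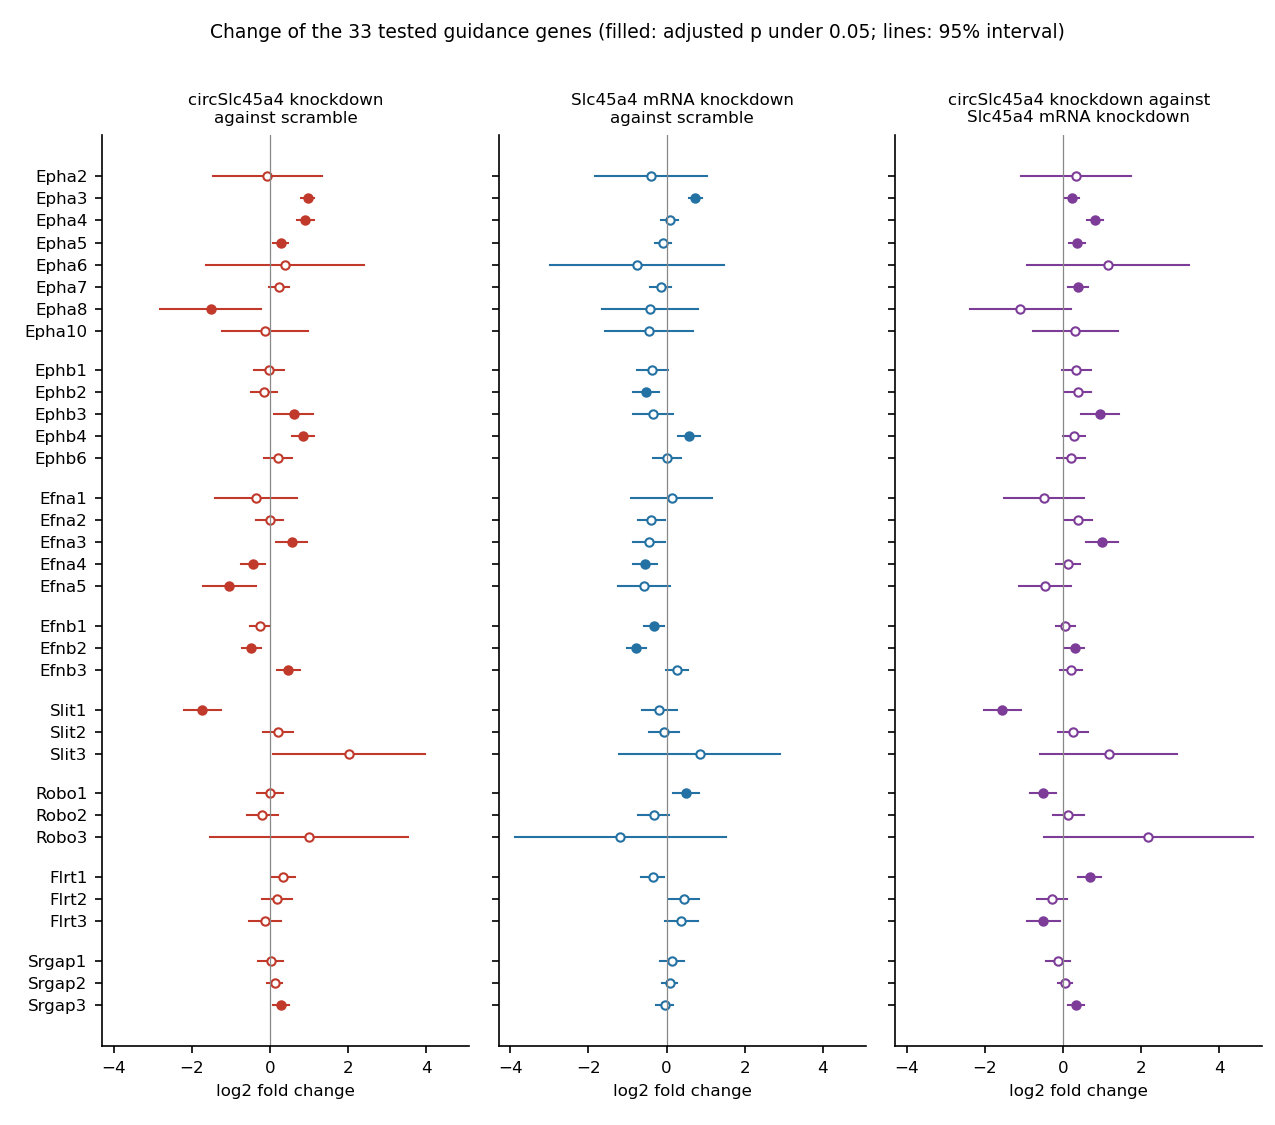
Log2 fold change of the 33 tested guidance genes in the 3 comparisons, with 95% intervals as lines and filled points for adjusted p under 0.05. Epha3 lies to the right in all 3 panels (0.96, 0.74 and 0.22), and Slit1 lies far to the left in the 2 panels that hold the circSlc45a4 knockdown (-1.74 and -1.56) but not in the other (-0.18).

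The stretch of 250 bases before the annotated start is shown for the 3 receptors whose rise in the circSlc45a4 knockdown held in all 19 alternatives and for Efnb2, the ephrin whose fall in the Slc45a4 mRNA knockdown did, since these members moved together or apart. The sequences are from RefSeq (GRCm38.p6), 5′ to 3′ on the gene's strand, for Epha3 at chr16:63864176-63864425 (minus), Epha4 at chr1:77515089-77515338 (minus), Ephb4 at chr5:137349859-137350108 (plus) and Efnb2 at chr8:8661243-8661492 (minus). Capitals mark the E-box letters CANNTG, which proneural bHLH factors bind.
Epha3: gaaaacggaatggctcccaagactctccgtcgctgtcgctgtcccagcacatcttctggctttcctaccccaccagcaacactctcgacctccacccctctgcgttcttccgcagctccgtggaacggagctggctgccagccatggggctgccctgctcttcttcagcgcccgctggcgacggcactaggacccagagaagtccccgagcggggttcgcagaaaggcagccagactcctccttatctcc
Epha4: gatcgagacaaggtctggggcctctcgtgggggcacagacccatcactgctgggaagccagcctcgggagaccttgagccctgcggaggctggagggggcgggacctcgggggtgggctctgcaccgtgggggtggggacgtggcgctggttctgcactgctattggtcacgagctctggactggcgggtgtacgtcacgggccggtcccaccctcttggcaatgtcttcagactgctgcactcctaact
Ephb4: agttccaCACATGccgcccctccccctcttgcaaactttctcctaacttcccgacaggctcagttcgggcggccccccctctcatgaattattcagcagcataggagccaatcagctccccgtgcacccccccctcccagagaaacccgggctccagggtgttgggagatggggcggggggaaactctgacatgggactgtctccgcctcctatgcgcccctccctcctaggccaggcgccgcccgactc
Efnb2: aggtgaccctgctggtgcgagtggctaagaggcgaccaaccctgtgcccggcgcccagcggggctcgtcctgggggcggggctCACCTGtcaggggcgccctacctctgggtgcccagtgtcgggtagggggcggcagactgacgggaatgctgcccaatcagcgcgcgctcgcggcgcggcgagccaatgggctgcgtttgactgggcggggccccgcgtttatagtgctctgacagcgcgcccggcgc

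No match of 1 motif overlapped a match of another in these windows. On both strands, CANNTG occurred 1 time in the Ephb4 and in the Efnb2 window and in neither of the other two, against 66.2% of 32841 RefSeq windows of this length. TGGGAA, the core letters bound by the Notch partner Rbpj, occurred 1 time in the Epha4 window only, against 21.6% of windows. GGGCGG, the GC box, occurred 4 times in Ephb4, 3 times in Efnb2, 1 time in Epha4 and not in Epha3, against 32.7% of windows. The windows held 16 (Epha3), 14 (Epha4), 12 (Ephb4) and 27 (Efnb2) CpG dinucleotides, all above the median of 6. Epha3 and Ephb4, which rose in both knockdowns, thus shared none of these letters. These matches are descriptions, and no binding was measured. A window was matched for 31 of the 34 members.

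Among the class A receptors, Epha3 rose in both knockdowns. Its product binds class A ephrins and is known for sorting axons and for cell repulsion. Epha3 (ENSMUSG00000052504.6, chr16:63543534-63864175, minus strand) was at 164, 162 and 153 CPM in the scramble libraries, at 329.6, 303 and 301 under circSlc45a4 knockdown and at 273, 259.9 and 267 under Slc45a4 mRNA knockdown. Every knockdown library lay above every scramble library, and the 2 knockdowns did not overlap either. The log2 change was 0.96 ± 0.07 (SE) in the circSlc45a4 knockdown, a 1.95-fold rise (edgeR adjusted p 1.68e-06), and 0.74 ± 0.07 under Slc45a4 mRNA knockdown, a 1.67-fold rise (adjusted p 2.47e-05). These calls held in all 19 alternatives. Replicate 3 of the Slc45a4 mRNA knockdown, where Xist was as low as in scramble, had 267 CPM of Epha3. That is a single library, and the part of embryo sex was not tested. The difference between the knockdowns was small, 0.22 ± 0.07 (adjusted p 0.0349). It was lost with Xist as a covariate (0.22, adjusted p 0.0608) and without circSlc45a4 replicate 1, Slc45a4 mRNA replicate 2 or 3, or scramble replicate 2 or 3 (0.19 to 0.23, adjusted p 0.0511 to 0.123).

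Epha4, which binds ephrins of both classes, rose in the circSlc45a4 knockdown. Epha4 (ENSMUSG00000026235.14, chr1:77367185-77515088, minus strand) was at 344, 337 and 322 CPM in scramble, at 691, 632 and 555 under circSlc45a4 knockdown and at 351, 336 and 379 under Slc45a4 mRNA knockdown. The circSlc45a4 libraries lay above the other 6, which overlapped. The change was 0.90 ± 0.09 against scramble (1.87-fold, edgeR adjusted p 1.15e-05) and 0.82 ± 0.09 against the Slc45a4 mRNA knockdown (adjusted p 3.91e-05), and both calls held in all 19 alternatives. For the Slc45a4 mRNA knockdown against scramble the estimate was 0.09 ± 0.09, with a 95% interval of -0.13 to 0.30.

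Epha4 supplied 49.8% ± 0.39 of the summed class A receptor level in scramble, 54.8% ± 2.52 under circSlc45a4 knockdown and 45.7% ± 1.21 under Slc45a4 mRNA knockdown. The share of Epha3 was 22.0% ± 0.32, 25.3% ± 0.65 and 31.8% ± 1.09 in the same order. The higher class A sum in the circSlc45a4 knockdown thus lay mostly in these 2 receptors.

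The other class A receptors with appreciable levels, Epha5 and Epha7, bind class A ephrins and are known for their graded expression in the forebrain. Epha5 was at 299, 282 and 294 CPM in scramble, 354, 320.5 and 381 under circSlc45a4 knockdown and 288, 254 and 279 under Slc45a4 mRNA knockdown. It rose in the circSlc45a4 knockdown, whose libraries lay above the other 6, by 0.27 ± 0.08 against scramble (edgeR adjusted p 0.0271) and 0.36 ± 0.08 against the Slc45a4 mRNA knockdown (0.00611). The call against scramble ended without circSlc45a4 replicate 1 or 3 or any scramble replicate (0.21 to 0.29, adjusted p 0.0508 to 0.105). Epha7 was at 52.0 to 60.9 CPM in scramble, 60.0 to 72.7 under circSlc45a4 knockdown and 44.2 to 54.5 under Slc45a4 mRNA knockdown. It passed only between the knockdowns (0.39 ± 0.10, adjusted p 0.0158), and this ended without circSlc45a4 replicate 1 (0.32, 0.0707) or Slc45a4 mRNA replicate 2 (0.30, 0.0591).

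Of the class A receptors under 1 CPM, Epha8 had 19, 26 and 28 counts in scramble against 13, 4 and 22 with circSlc45a4 knocked down. It fell by 1.52 ± 0.53 on the log2 scale (edgeR adjusted p 0.0487), at the threshold and on few counts. The call ended when any single library other than circSlc45a4 replicate 3 or Slc45a4 mRNA replicate 1 was left out (adjusted p 0.0653 to 0.134). Epha2, Epha6 and Epha10 passed in no comparison, and at 0 to 35 counts per library only large differences were detectable.

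The class B receptors bind class B ephrins, and Ephb4 pairs mainly with ephrin-B2 and is known from blood vessels. Ephb4 (ENSMUSG00000029710.15, chr5:137350109-137378669, plus strand) was at 7.65, 8.36 and 8.09 CPM in scramble, 14.7, 15.1 and 13.7 under circSlc45a4 knockdown and 11.2, 12.2 and 12.4 under Slc45a4 mRNA knockdown. The 3 groups did not overlap. Ephb4 rose by 0.85 ± 0.12 in the circSlc45a4 knockdown (1.80-fold, edgeR adjusted p 0.000165) and by 0.57 ± 0.12 in the Slc45a4 mRNA knockdown (1.48-fold, 0.00482), and the difference between them was 0.28 ± 0.11 (0.0869). With Xist as a covariate the call in the Slc45a4 mRNA knockdown was lost (0.64, adjusted p 0.0520). The summed level of 10 endothelial markers was 2.14 to 5.03 CPM in scramble, 0.805 to 1.77 under circSlc45a4 knockdown and 1.56 to 2.24 under Slc45a4 mRNA knockdown. In the circSlc45a4 knockdown this sum lay below scramble, and the part of endothelial cells in the level of Ephb4 was not tested. Of these 10 markers, 7 (Cdh5, Cldn5, Flt1, Tek, Tie1, Ramp2, Emcn) were under 1 CPM in every library.

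Ephb3, another class B receptor, was at 6.22, 12.2 and 9.51 CPM in scramble, 16.1, 13.0 and 13.7 under circSlc45a4 knockdown and 7.59, 6.39 and 8.20 under Slc45a4 mRNA knockdown. The circSlc45a4 libraries lay above the other 6, and scramble spread widely. Ephb3 was higher in the circSlc45a4 knockdown than in the Slc45a4 mRNA knockdown by 0.95 ± 0.20 (edgeR adjusted p 0.00400), which held in all 19 alternatives. Against scramble it rose by 0.61 ± 0.20 (adjusted p 0.0394), and this ended without any of the circSlc45a4 replicates or scramble replicate 1 or 3 (0.39 to 0.67, adjusted p 0.0639 to 0.140). Without scramble replicate 1 it passed in the Slc45a4 mRNA knockdown (-0.56, 0.0455).

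Ephb2, known in axon guidance and at excitatory synapses, fell in the Slc45a4 mRNA knockdown. It was at 216, 207 and 163 CPM in scramble, 159, 170.1 and 199 under circSlc45a4 knockdown and 108, 149 and 148 under Slc45a4 mRNA knockdown. The Slc45a4 mRNA libraries lay below all 6 others, and the change against scramble was -0.53 ± 0.14 (edgeR adjusted p 0.0169). It ended without scramble replicate 1 (-0.45, 0.0672) or 2 (-0.48, 0.0785). Between the knockdowns Ephb2 stood at 0.38 ± 0.14 (0.0561) and passed without scramble replicate 3 (0.38, 0.0400). Ephb1, at 21.6 to 38.5 CPM, and Ephb6, a receptor without kinase activity at 60.4 to 103 CPM, passed in no comparison, but Ephb1 passed between the knockdowns without circSlc45a4 replicate 3 (0.48, 0.0372).

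Among the ligands, Efnb2 fell in both knockdowns. It encodes ephrin-B2, a membrane-spanning ligand of class B receptors and of Epha4. Efnb2 (ENSMUSG00000001300.16, chr8:8617434-8661242, minus strand) was at 575, 629 and 574 CPM in scramble, 428, 376 and 475 under circSlc45a4 knockdown and 329, 332 and 382 under Slc45a4 mRNA knockdown. Every knockdown library lay below every scramble library, and the 2 knockdowns overlapped. The change was -0.47 ± 0.10 in the circSlc45a4 knockdown (1.39-fold lower, edgeR adjusted p 0.00255) and -0.77 ± 0.10 in the Slc45a4 mRNA knockdown (1.70-fold lower, 0.000148). With Xist as a covariate the circSlc45a4 estimate was -0.30 and no longer passed (adjusted p 0.261), while the Slc45a4 mRNA call held in all 19 alternatives. Slc45a4 mRNA replicate 3, with low Xist, had 382 CPM, which is a single library, and the part of embryo sex was not tested. The difference between the knockdowns, 0.29 ± 0.10 (adjusted p 0.0366), ended without circSlc45a4 replicate 1 or 3, Slc45a4 mRNA replicate 1 or 2 or scramble replicate 2 (0.21 to 0.30, adjusted p 0.0502 to 0.147).

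Efnb1, the X-linked class B ephrin, was at 199, 254 and 244 CPM in scramble, 207, 187 and 188 under circSlc45a4 knockdown and 167, 189 and 203 under Slc45a4 mRNA knockdown. All groups overlapped. The Slc45a4 mRNA change of -0.32 ± 0.10 passed narrowly (edgeR adjusted p 0.0478) and ended without any of 7 libraries, that is all but Slc45a4 mRNA replicate 3 and scramble replicate 1 (-0.24 to -0.33, adjusted p 0.0547 to 0.207). In the circSlc45a4 knockdown the value was -0.26 ± 0.10 (0.0775). It passed without Slc45a4 mRNA replicate 1 (-0.26, 0.0488) or scramble replicate 1 (-0.36, 0.0202).

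Efnb3, the remaining class B ephrin, moved the other way. It was at 36.3, 35.4 and 33.03 CPM in scramble, 56.2, 46.3 and 42.9 under circSlc45a4 knockdown and 35.9, 45.5 and 44.8 under Slc45a4 mRNA knockdown. It rose by 0.47 ± 0.12 in the circSlc45a4 knockdown (edgeR adjusted p 0.00985), without overlap with scramble. Leaving out circSlc45a4 replicate 1, the highest library, ended this call (0.35, 0.0603). In the Slc45a4 mRNA knockdown the value was 0.27 ± 0.12 (0.137), and it passed without replicate 1 of that group (0.38, 0.0373).

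The class A ephrins moved in both directions. Efna3 and Efna4 lie next to each other on chromosome 3, 10.4 kb apart, and both encode lipid-anchored ligands of class A receptors. Efna3 was at 23.6, 24.0 and 21.5 CPM in scramble, 40.3, 36.8 and 24.4 under circSlc45a4 knockdown and 14.5, 19.4 and 17.0 under Slc45a4 mRNA knockdown. The 3 groups did not overlap, although circSlc45a4 replicate 3 lay just above scramble. Efna3 was higher in the circSlc45a4 than in the Slc45a4 mRNA knockdown by 1.00 ± 0.17 (1.99-fold, edgeR adjusted p 0.00082), which held in all 19 alternatives. It rose by 0.56 ± 0.16 against scramble (0.0235), which ended without circSlc45a4 replicate 1 or 2 or scramble replicate 2 or 3 (0.41 to 0.59, adjusted p 0.0578 to 0.119). In the Slc45a4 mRNA knockdown the value was -0.44 ± 0.17 (0.0859), which passed without circSlc45a4 replicate 3 (-0.44, 0.0264).

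Efna4 fell in both knockdowns. It was at 25.1, 26.0 and 23.3 CPM in scramble, 21.1, 18.3 and 15.6 under circSlc45a4 knockdown and 14.9, 17.7 and 17.9 under Slc45a4 mRNA knockdown. The knockdown libraries all lay below scramble and overlapped each other. The change was -0.43 ± 0.13 in the circSlc45a4 knockdown (edgeR adjusted p 0.0213) and -0.55 ± 0.13 in the Slc45a4 mRNA knockdown (0.00887). The first ended without circSlc45a4 replicate 2 or 3 or scramble replicate 1 or 2 (-0.33 to -0.43, adjusted p 0.0520 to 0.0865). With Xist as a covariate neither passed (-0.31, adjusted p 0.430, and -0.46, 0.214), nor did either with a minimum change of 1.2-fold (adjusted p 0.153 and 0.0681). Both genes overlap an antisense gene, over 14.1% of exon bases for Efna3 (Gm15998, at most 0.191 CPM) and 10.5% for Efna4 (4731419I09Rik, at most 1.42 CPM). Reads there cannot be assigned without the strand setting.

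Efna5, a lipid-anchored ligand known for topographic mapping, was at 3.44, 4.44 and 6.58 CPM in scramble, 2.53, 1.67 and 2.86 under circSlc45a4 knockdown and 3.96, 2.99 and 2.82 under Slc45a4 mRNA knockdown. It fell by 1.04 ± 0.28 on the log2 scale in the circSlc45a4 knockdown (edgeR adjusted p 0.0133), where every library lay below scramble. The call ended without circSlc45a4 replicate 2 (-0.85, 0.0569) or scramble replicate 3 (-0.75, 0.0792). Efna2, at 14.5 to 28.0 CPM, passed in no comparison, with -0.39 ± 0.14 in the Slc45a4 mRNA knockdown (0.0778) and 0.38 ± 0.14 between the knockdowns (0.0623), the latter passing without Slc45a4 mRNA replicate 2 (0.48, 0.0486). Efna1 stayed at 0.536 to 1.32 CPM and passed in none.

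**Figure D3:**
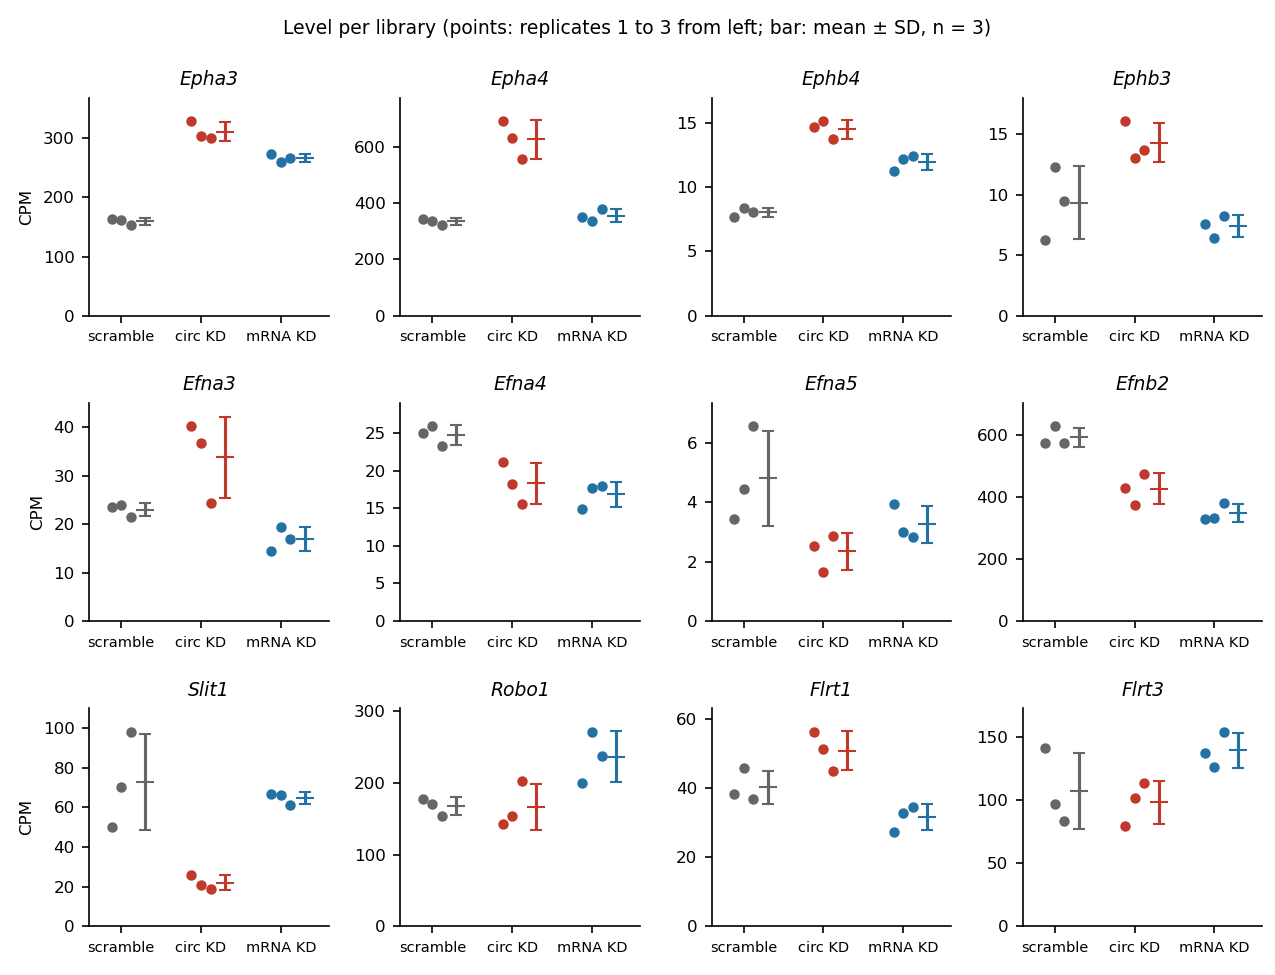
Level in CPM of 12 guidance genes in each library, with replicates 1 to 3 from left and a bar for mean ± SD (n = 3). Epha3 and Ephb4 stand higher and Efnb2 lower in both knockdowns (KD), while Epha4 and Slit1 stand apart in the circSlc45a4 knockdown alone (626 and 21.9 CPM on average).

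Slit1, a secreted Robo ligand of neurons, fell in the circSlc45a4 knockdown. Slit1 (ENSMUSG00000025020.11, chr19:41600257-41743665, minus strand) was at 49.97, 70.4 and 98.2 CPM in scramble, 26.0, 20.9 and 18.8 under circSlc45a4 knockdown and 66.5, 66.0 and 61.0 under Slc45a4 mRNA knockdown. The circSlc45a4 libraries lay below the other 6, and scramble spread far more than the other groups. Slit1 fell by 1.74 ± 0.19 on the log2 scale against scramble (3.33-fold lower, edgeR adjusted p 3.1e-05) and was lower than in the Slc45a4 mRNA knockdown, at -1.56 ± 0.19 (adjusted p 0.000101). Both calls held in all 19 alternatives. Between the Slc45a4 mRNA knockdown and scramble the estimate was -0.18 ± 0.19, with a 95% interval of -0.63 to 0.27.

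Slit2 was at 23.4 to 27.1 CPM in scramble, 25.4 to 35.1 under circSlc45a4 knockdown and 19.6 to 30.5 under Slc45a4 mRNA knockdown, and passed in no comparison. Between the knockdowns it passed without Slc45a4 mRNA replicate 1 (0.45, edgeR adjusted p 0.0396). Per kilobase, Slit1 therefore made up 91.7% ± 2.86 of the summed Slit level in scramble, 74.7% ± 0.84 under circSlc45a4 knockdown and 91.5% ± 1.67 under Slc45a4 mRNA knockdown. The share of Slit2 went from 8.15% ± 2.98 in scramble to 23.4% ± 0.28 in the circSlc45a4 knockdown. These shares depend on exon length, and by the longest transcript those of Slit2 were 17.7% ± 5.83 and 42.8% ± 0.42, and those of Slit1 82.2% ± 5.71 and 55.7% ± 0.51. The summed Slit level was 13.3 ± 4.04 CPM per kilobase in scramble, 4.96 ± 0.853 under circSlc45a4 knockdown and 11.9 ± 0.587 under Slc45a4 mRNA knockdown. Slit3 was close to the floor, with 0, 4 and 8 counts in scramble, 30, 31 and 8 under circSlc45a4 knockdown and 9, 5 and 13 under Slc45a4 mRNA knockdown. It did not pass (adjusted p 0.0779 against scramble), except when circSlc45a4 replicate 3 was left out (2.45, 0.0391).

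Of the Slit receptors, Robo1 rose in the Slc45a4 mRNA knockdown. It was at 178, 170.4 and 153 CPM in scramble, 143, 154 and 203 under circSlc45a4 knockdown and 200.5, 272 and 238 under Slc45a4 mRNA knockdown. The Slc45a4 mRNA libraries lay above scramble and overlapped the circSlc45a4 range. The change was 0.50 ± 0.13 against scramble (edgeR adjusted p 0.0205), which ended without Slc45a4 mRNA replicate 2 or 3 or scramble replicate 2 or 3 (0.39 to 0.52, adjusted p 0.0508 to 0.0792). Robo1 was lower in the circSlc45a4 than in the Slc45a4 mRNA knockdown, at -0.51 ± 0.13 (0.0138), which ended without circSlc45a4 replicate 1 or 2 or Slc45a4 mRNA replicate 2 (-0.39 to -0.44, adjusted p 0.0641 to 0.0798). In the circSlc45a4 knockdown its mean equalled that of scramble, 167 CPM, with a 95% interval of -0.33 to 0.32 for the log2 change.

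Robo2, the most abundant Robo, was at 739.8, 623 and 486 CPM in scramble, 467, 487 and 662 under circSlc45a4 knockdown and 406, 518 and 546 under Slc45a4 mRNA knockdown. Its groups overlapped throughout, and it passed in no comparison (edgeR adjusted p 0.18 to 0.589).

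Robo3, a divergent Robo known for midline crossing, varied more between libraries of 1 group than between groups. It was at 1.00, 2.95 and 18.6 CPM in scramble, 33.8, 9.81 and 2.50 under circSlc45a4 knockdown and 9.01, 0.728 and 0.471 under Slc45a4 mRNA knockdown. The highest library of each group exceeded the lowest of every other group. It passed in no comparison, with log2 changes of 1.00 ± 1.04 (edgeR adjusted p 0.517), -1.18 ± 1.10 (0.503) and 2.18 ± 1.09 (0.164). Single libraries turned the direction. The circSlc45a4 estimate ran from -0.33 without circSlc45a4 replicate 1 to 2.90 without scramble replicate 3. The Slc45a4 mRNA estimate ran from -3.67 without Slc45a4 mRNA replicate 1 to 0.72 without scramble replicate 3. Without Slc45a4 mRNA replicate 1 the knockdowns differed by 4.67 (0.0202).

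In each group the order of the libraries by Robo3 was also their order by the summed level of the 6 deep-layer neuron markers. These sums were 896, 1015 and 1125 CPM in scramble, 1418, 1268 and 1168 under circSlc45a4 knockdown and 1128, 991 and 883 under Slc45a4 mRNA knockdown. Slit1 had the same order in all 3 groups and Robo2 the reverse, out of 32 members that could be ranked. Among 17676 genes ranked, 1.02% had the same order and 1.09% the reverse. By the upper-layer marker sum, Srgap1 had the same order and no member the reverse (1.36% and 1.11% of genes). The summed Cajal-Retzius markers had the order of Robo3 in scramble (27.3, 35.4 and 65.8 CPM) and under circSlc45a4 knockdown (256, 144 and 78.8). Under Slc45a4 mRNA knockdown (28.9, 19.0 and 19.3) replicates 2 and 3 were exchanged. These patterns were looked at after the values were seen, and a link between Robo3 and any of these markers was not tested.

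**Figure D4:**
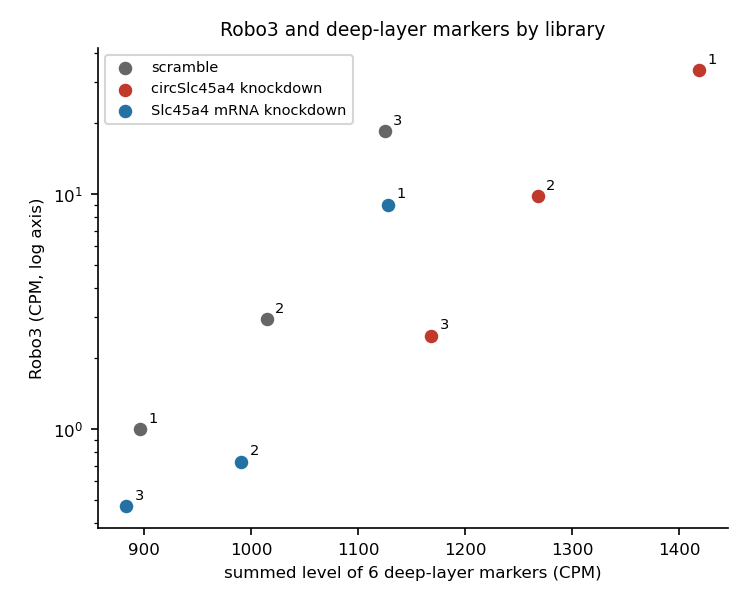
Robo3 in CPM (log axis) against the summed CPM of 6 deep-layer neuron markers, with 1 point per library, its replicate number and its group as colour. Within each group the library with the highest marker sum also had the highest Robo3, at 18.6, 33.8 and 9.01 CPM.

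Flrt1, the first of the Flrt genes, was at 38.3, 45.8 and 36.8 CPM in scramble, 56.4, 51.4 and 44.9 under circSlc45a4 knockdown and 27.4, 32.8 and 34.7 under Slc45a4 mRNA knockdown. The knockdowns did not overlap. Scramble lay above the Slc45a4 mRNA libraries and overlapped the circSlc45a4 range. Flrt1 was higher in the circSlc45a4 than in the Slc45a4 mRNA knockdown by 0.69 ± 0.12 (1.61-fold, edgeR adjusted p 0.00117), which held in all 19 alternatives. Against scramble it missed the threshold, at 0.34 ± 0.12 (0.0537) in the circSlc45a4 and -0.35 ± 0.12 (0.0618) in the Slc45a4 mRNA knockdown. The first passed without circSlc45a4 replicate 3 (0.42, 0.0319), Slc45a4 mRNA replicate 1 (0.34, 0.0249) or scramble replicate 2 (0.44, 0.0370).

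Flrt3, a Flrt known to bind Unc5 receptors and Robo1, was at 141, 96.7 and 83.4 CPM in scramble, 79.5, 102 and 113 under circSlc45a4 knockdown and 138, 126 and 154 under Slc45a4 mRNA knockdown. The circSlc45a4 libraries lay below the Slc45a4 mRNA libraries, at -0.50 ± 0.17 (edgeR adjusted p 0.0434), and scramble spanned both. The call ended without circSlc45a4 replicate 1 or 2, any Slc45a4 mRNA replicate or scramble replicate 2 (-0.36 to -0.57, adjusted p 0.0525 to 0.190). It also ended with Xist as a covariate (-0.46, 0.0816). Against scramble, the Slc45a4 mRNA knockdown passed without scramble replicate 1 (0.63, 0.0113). Flrt2, which binds Unc5d, stood at 112, 65.1 and 78.9 CPM under Slc45a4 mRNA knockdown and 55.0 to 73.9 in the other 6 libraries. It passed in no comparison, but without Slc45a4 mRNA replicate 2, the lowest of its group, it stood 0.61 above scramble (0.0118) and at -0.43 between the knockdowns (0.0429).

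Of the srGAPs, Srgap3 passed and the other two did not. Srgap3 was at 239.9, 236 and 223 CPM in scramble, 295, 262 and 291 under circSlc45a4 knockdown and 201, 228 and 246 under Slc45a4 mRNA knockdown. It rose in the circSlc45a4 knockdown, above the other 6 libraries, by 0.28 ± 0.09 against scramble (edgeR adjusted p 0.0300) and 0.33 ± 0.09 against the Slc45a4 mRNA knockdown (0.0140). The first ended without circSlc45a4 replicate 1 or 3 or any scramble replicate (0.25 to 0.30, adjusted p 0.0559 to 0.116), the second without circSlc45a4 replicate 1 (0.31, 0.0602). Srgap2 was at 139 ± 0.541 CPM in scramble, 151 ± 9.44 under circSlc45a4 knockdown and 147 ± 7.84 under Slc45a4 mRNA knockdown. Its 95% interval for the circSlc45a4 change was -0.07 to 0.30. Srgap1, at 78.1 to 112 CPM, passed in no comparison.

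Partners of these families were read from 4 lists with 71 genes, of which 69 were tested. In the circSlc45a4 knockdown 19 rose and 14 fell (27.1% of all genes passed), with a median of 0.04. In the Slc45a4 mRNA knockdown 8 rose and 17 fell (18.0%), with a median of -0.14, and between the knockdowns 22 stood higher and 5 lower where circSlc45a4 was knocked down (26.1%), with a median of 0.18. Of 22 Slit and Robo partners, 9 rose and 2 fell in the circSlc45a4 knockdown (14.1% and 13.0% of all genes). In the Slc45a4 mRNA knockdown 2 rose and 6 fell (8.92% and 9.09%). Between the knockdowns 11 were higher and none lower (13.8% and 12.3%).

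Nell2, a secreted ligand of Robo3, rose from 106, 108 and 109.9 CPM in scramble to 257, 229 and 229 under circSlc45a4 knockdown and 188, 207 and 202 under Slc45a4 mRNA knockdown. The changes were 1.141 ± 0.08 (edgeR adjusted p 8.31e-07) and 0.88 ± 0.08 (1.01e-05). Like Epha3, Nell2 stood above scramble in every knockdown library. Ndfip2, an adaptor of the ubiquitin ligases that turn over Robo1, fell by 0.54 ± 0.10 and 0.89 ± 0.10 in the same order (0.00109 and 5.29e-05), the first not passing with Xist as a covariate (-0.48, 0.111). Evl, an actin regulator of the Ena/VASP family, fell in the Slc45a4 mRNA knockdown by 0.91 ± 0.09 (2.81e-05), and its value in the circSlc45a4 knockdown was -0.08 ± 0.09. Usp33, a deubiquitinase that binds Robo1, rose in the circSlc45a4 knockdown by 0.46 ± 0.08 (0.000699).

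Of 25 Eph effectors, 6 rose and 10 fell in the circSlc45a4 knockdown (14.1% and 13.0% of all genes), and 5 rose and 8 fell in the Slc45a4 mRNA knockdown (8.92% and 9.09%). Chn1, the Rac inhibitor alpha-chimaerin that acts below Epha4, fell in the circSlc45a4 knockdown. It was at 146, 139 and 132 CPM in scramble, 77.1, 76.1 and 75.0 under circSlc45a4 knockdown and 118, 125 and 119.7 under Slc45a4 mRNA knockdown. The change in the circSlc45a4 knockdown was -0.87 ± 0.07 (edgeR adjusted p 3.14e-06), so Chn1 fell in the libraries where Epha4 rose. Ptpro, a phosphatase that acts on Eph receptors, fell by 0.86 ± 0.08 in the circSlc45a4 knockdown (6.6e-06). In the Slc45a4 mRNA knockdown Ptpro passed as higher, by 0.28. That call ended with Xist as a covariate (0.27, adjusted p 0.226) or without any scramble replicate (0.27 to 0.31, adjusted p 0.0581 to 0.0832). Abl2, a kinase of the Abl family, rose by 0.61 ± 0.09 in the circSlc45a4 knockdown (0.000416) and fell by 0.58 ± 0.10 in the Slc45a4 mRNA knockdown (0.00112), the latter not passing with Xist as a covariate (-0.35, 0.0928).

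Of 9 genes of ephrin shedding and reverse signalling, 1 rose and 2 fell in each knockdown against scramble, where 27.1% and 18.0% of all genes passed. Grip1, a scaffold that binds class B ephrins, rose from 30.03, 32.1 and 31.9 CPM in scramble to 71.1, 62.0 and 52.8 in the circSlc45a4 knockdown, by 0.98 ± 0.11 (edgeR adjusted p 2.69e-05). It also rose in the Slc45a4 mRNA knockdown, by 0.36 ± 0.11 (0.0352). That call ended with Xist as a covariate (0.43, 0.142) or without any scramble replicate (0.33 to 0.37, adjusted p 0.0756 to 0.0998). Of 13 Flrt partners, 3 rose in the circSlc45a4 knockdown, 1 fell in the Slc45a4 mRNA knockdown, and 5 were higher and none lower between the knockdowns, where 14.1%, 9.09% and 13.8% of all genes passed in those directions.

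Unc5b, an Unc5 receptor for netrins and Flrts, had 6.503, 5.70 and 4.82 CPM in scramble, 111, 116 and 69.9 under circSlc45a4 knockdown and 2.54, 4.13 and 4.38 under Slc45a4 mRNA knockdown. It rose in the circSlc45a4 knockdown by 4.13 ± 0.22 (edgeR adjusted p 2.36e-07). The circSlc45a4 libraries lay far above the other 6. Unc5d, the Unc5 receptor of multipolar neurons and a Flrt2 partner, was at 279.6 ± 51.8 CPM in scramble and 335 ± 35.9 in the circSlc45a4 knockdown, where it did not pass (0.282). It fell to 146 ± 37.1 under Slc45a4 mRNA knockdown, by 0.94 ± 0.17 (0.00231), and the knockdowns differed by 1.198 ± 0.17 (0.000296). With Xist as a covariate the fall no longer passed (-0.65, 0.140).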

How the data were processed

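The authors deposited whole, unnormalized read counts per gene (53379 Ensembl IDs, 9 libraries). Per the submitters' processing notes, bcl2fastq 2.17.1.14, STAR 2.4.2a, DESeq2 and build mm10 were used, without stated roles. The sources used here do not give the annotation release, the strand setting or the counting program. IDs were joined to GENCODE M21 symbols and coordinates (GRCm38, the same assembly as mm10) without version suffix, which matched 53274 IDs.

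Genes were filtered by filterByExpr of edgeR 4.0.16 (minimum count 10), which left 17760, and scaled by TMM. CPM are counts over TMM-scaled library totals, and CPM per kilobase use union exon length. The quasi-likelihood fit used all 9 libraries with group as its only term, which left 6 residual degrees of freedom. The p-values were adjusted over all genes tested, and a call is an adjusted p under 0.05. Standard errors are log2 fold changes divided by the root of F, and the biological coefficient of variation over all genes was 13.9%. The 95% intervals use the 6 residual degrees of freedom only. The test adds prior degrees of freedom, so the intervals are wider than its p-values imply. The test was checked on simulated data.

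All 34 members are named, with up to 3 genes of each partner list and comparison by smallest p among those past the threshold, of which examples are printed. Members and lists were chosen with earlier results of these data known. Alternatives were RLE and upper-quartile factors, the Wald test of DESeq2 1.42.0, limma-voom (limma 3.58.1), no filter, at least 1 CPM in 3 libraries, only the 6 libraries compared, a replicate block, Xist as a covariate (log2 CPM plus 0.5), a minimum change of 1.2-fold and leaving out each library, 19 in all. A check of the tissue by regional marker genes is not reported here.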

Additional observations from a re-analysis of the deposited data

How the results depend on the processing

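Of the 13, 7 and 12 calls in the circSlc45a4 knockdown, in the Slc45a4 mRNA knockdown and between them, 4 (Epha3, Epha4, Ephb4, Slit1), 2 (Epha3, Efnb2) and 5 (Epha4, Ephb3, Efna3, Slit1, Flrt1) held under all 19 alternatives. Leaving out 1 library gave 7 to 15, 4 to 8 and 6 to 12 calls. With Xist as a covariate 4 and 2 calls were left against scramble, and of 12 calls between the knockdowns 10 were shared with the fit without it (Epha3 and Flrt3 lost, Ephb2 and Efna2 gained), while calls over all genes went from 4814 to 1363 and from 3200 to 806. Within a group Xist differed strongly only in the Slc45a4 mRNA knockdown, so this covariate rests mainly on replicate 3 of that group. A minimum change of 1.2-fold gave 6, 3 and 5 calls. In the Slc45a4 mRNA knockdown the DESeq2 test called 11 members, and without the filter 15 were called. Without the filter the median prior degrees of freedom, 7.23 otherwise, were not finite, so a gene's own spread no longer entered, and Robo3 was called in all 3 comparisons there. Same-numbered libraries deviated together with correlations of -0.14 to 0.12 (over 0.1 in 1 of 9 pairs), and differently numbered ones with -0.12 to 0.18. Between the 2 knockdowns, same-numbered pairs stood at 0.08 to 0.12 and the other pairs at -0.07 to -0.03. The labels do not say that the numbers pair samples, so they were not taken to do so. The replicate block gave 10, 6 and 11 calls. No called member changed sign. Ordered by the longest transcript, 9 of the 10 highest members in scramble stayed among the 10 highest, in another order. Members with few counts per library (Epha1, Epha2, Epha6, Epha8, Epha10, Efna1, Slit3) are limited by depth.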
